A study of Mus musculus with 6 samples.

Results

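A set of 10 genes of the muscle atrophy programme were followed in quadriceps RNA: the ubiquitin ligase genes Fbxo32, Trim63, Trim55, Trim54, Fbxo30 and Fbxo31, the forkhead factor genes Foxo1, Foxo3 and Foxo4, and Klf15. They were taken by symbol from a table of 33641 gene symbols and 105129 transcript rows, in which the 10 genes had 30 transcript rows. The study compared 3 libraries from mice carrying 2 copies of a mouse allele modelled on rs6190, a coding variant of the human glucocorticoid receptor gene (labelled rs6190 allele +/+, here Homo), with 3 libraries from mice that carry no copy of it (ref allele +/+, here WT). All were male littermates of heterozygous parents, labelled 4 months old, about 16 weeks in the design text. Tissue was taken at about ZT4, that is 4 hours after lights on, and no hormone treatment is named for either group. The labels number the libraries without stating that each is a separate mouse, so p-values measure only the spread between these libraries.

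The glucocorticoid receptor is a hormone-activated transcription factor, and glucocorticoid excess causes muscle wasting. In that setting Fbxo32 (atrogin-1) and Trim63 (MuRF1) are the classic atrophy genes: both encode ubiquitin ligases found in muscle, which mark proteins for the proteasome. FoxO factors switch such genes on when insulin signalling through Akt is low, because Akt phosphorylates FoxO proteins and keeps them out of the nucleus. KLF15 is a transcription factor that the glucocorticoid receptor induces and that acts on amino acid catabolism and on atrophy genes.

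The best known site at which these factors meet is the Trim63 promoter, where the glucocorticoid receptor and FOXO1 are known to act together, so its sequence is shown with that of its relative Trim54. Promoters (300 bases around RefSeq's own gene start, GRCm38.p6, which for some genes, Trim54 among them, is not the GENCODE start given with the gene) were matched for 7 of the 10 genes: Trim63, Trim54, Fbxo30, Fbxo31, Foxo1, Foxo3 and Klf15. In the lines that follow, read 5′ to 3′ on the plus strand, capitals mark matches to GNACA and TGTNC with 3 bases between them (a pair of glucocorticoid receptor half-sites, N being any base) or to TGTTTAC (a forkhead element), each searched on both strands.
Trim63 promoter, chr4:134314870-134315169: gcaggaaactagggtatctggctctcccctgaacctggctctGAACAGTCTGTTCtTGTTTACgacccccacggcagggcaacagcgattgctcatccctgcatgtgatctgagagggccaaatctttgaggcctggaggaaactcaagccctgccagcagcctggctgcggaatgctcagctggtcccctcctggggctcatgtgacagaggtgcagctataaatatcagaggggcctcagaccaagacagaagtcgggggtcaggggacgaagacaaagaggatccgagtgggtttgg
Trim54 promoter, chr5:31116362-31116661: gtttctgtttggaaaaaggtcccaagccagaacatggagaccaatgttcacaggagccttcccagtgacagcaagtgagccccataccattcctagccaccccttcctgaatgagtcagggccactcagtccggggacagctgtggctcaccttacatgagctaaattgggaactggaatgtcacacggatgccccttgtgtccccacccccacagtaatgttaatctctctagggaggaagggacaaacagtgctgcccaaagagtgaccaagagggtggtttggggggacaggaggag
The Trim63 window held both motifs, GAACAGTCTGTTC from position -208 and TGTTTAC from position -194 relative to the RefSeq start, with 1 base between them and no overlap. Of 32851 promoters of 300 bases, 0.475% held the first motif, 3.65% the second and 0.0152% (5 promoters) both. The other 6 matched promoters held neither string, which says only that these letters are not in those windows.

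The libraries differed in composition within groups. The 7 defining muscle genes (Acta1, Ckm, Des, Mb, Myod1, Tnnt3 and Ttn) were detected in every library, at summed levels of 63089 to 106026 TPM. TPM is abundance per transcript length, scaled to 1000000 in each library, so it carries no sequencing depth, and depth is unknown here. WT replicate 3 stood apart, with 231886 TPM summed over 12 fast-fibre genes against 96655 to 131359 TPM in the other libraries. Of those genes, Myh1 and Myh2 were lowest in WT replicate 3 (239 and 122 TPM), while the rest were highest there. Myh1 was 1183, 1253 and 942 TPM in Homo libraries and 464 and 315 TPM in WT replicates 1 and 2. Myh2 was 593, 728 and 478 TPM in Homo libraries and 361 and 272 TPM in WT replicates 1 and 2. Neither gene overlapped between groups. The 11 slow-fibre genes summed to 360 TPM in WT replicate 3, and to 1299 and 1948 TPM in the other WT libraries. In Homo libraries they summed to 2565, 10282 and 2768 TPM. Mitochondrially encoded transcripts made up 20.9%, 27.3% and 25.3% of the TPM in Homo libraries and 26.2%, 33.9% and 14.3% in WT libraries. WT replicate 3 also had the fewest genes at 1 TPM or more, 10048 against 10761 to 11359 in the other libraries. Of the markers of other cell types, Schwann cell genes summed to 76.4, 104 and 28.5 TPM in Homo libraries and 18.5, 25.2 and 15.9 TPM in WT libraries, without overlap, with all 6 genes detected in every library. Immune, endothelial, fibroblast, satellite cell, adipocyte and blood sums overlapped between groups, and the part of these cells in the results was not tested. Over 11099 tested genes the median log2 fold change was 0.26 (Homo minus WT), so a typical gene was higher in Homo libraries, and member values are also given relative to that median. In bulk tissue, fewer cells of a type and less RNA per cell cannot be told apart.

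By level, Trim54 was the most abundant of the 10, with a mean over the 6 libraries of 372 ± 61.2 TPM (SD). Trim63 followed at 99.4 ± 20.9 TPM, then Fbxo31 at 61.7 ± 18.5, Foxo4 at 57.6 ± 10.6 and Fbxo32 at 41.2 ± 17.7 TPM. Trim55 (24.9 ± 4.08 TPM) and Klf15 (21.6 ± 7.06 TPM) came next. Foxo1 (4.60 ± 2.26 TPM), Foxo3 (4.01 ± 1.22 TPM) and Fbxo30 (2.90 ± 0.995 TPM) lay lowest. Only 2 steps in this order separated neighbours in every comparison of ranges, Trim54 above Trim63 and Klf15 above Foxo1. Fbxo31 and Foxo4 did not differ beyond their spread, Fbxo31 being higher in 3 of 6 libraries, and the same held for Trim55 and Klf15.

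Fbxo32 (ENSMUSG00000022358.7, chromosome 15, 58175879 to 58214932, minus strand, GRCm38) encodes the substrate-binding F-box protein of an SCF ligase. Its level was 39.2, 44.3 and 53.7 TPM in Homo replicates 1, 2 and 3, and 62.2, 37.5 and 10.5 TPM in WT replicates 1, 2 and 3. The WT group thus held both the highest and the lowest library, and the Homo libraries lay between them. The Homo mean was 45.7 ± 7.35 TPM and the WT mean 36.7 ± 25.8 TPM (SD, n = 3 each). The difference of 0.61 on the log2 scale (SE 0.57) did not pass (adjusted p 0.491 in limma). Without WT replicate 3 the log2 fold change was -0.091 (SE 0.23), so the direction rested on that library. With the slow-fibre score (mean log2 value of 11 slow-fibre genes) as covariate it was -0.46 (SE 0.60). That score, centred, was 0.21, 2.54 and 0.53 in Homo libraries and 0.062, -0.51 and -2.84 in WT libraries, without overlap. Fits with this covariate, here and for the genes below, therefore cannot tell genotype and fibre composition apart.

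Trim63 (ENSMUSG00000028834.13, chromosome 4, 134315120 to 134329629, plus strand) encodes a RING-finger ligase of the sarcomere. Its level was 73.5, 104 and 116 TPM in Homo libraries and 101, 76.3 and 126 TPM in WT libraries. The groups overlapped almost fully, at 97.8 ± 21.8 and 101 ± 24.7 TPM (SD, n = 3 each). Its log2 fold change of -0.045 (SE 0.23, adjusted p 0.904 in limma) was -0.31 relative to the median of all genes. Its sign turned to 0.13 without WT replicate 3 and to 0.15 without Homo replicate 1. Their extremes fell in the same library: WT replicate 3 had the lowest Fbxo32 and the highest Trim63 of the 6 libraries. The ratio of Fbxo32 to Trim63 was 0.0834 there, and between 0.426 and 0.614 in the other 5 libraries.

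**Figure D1:**
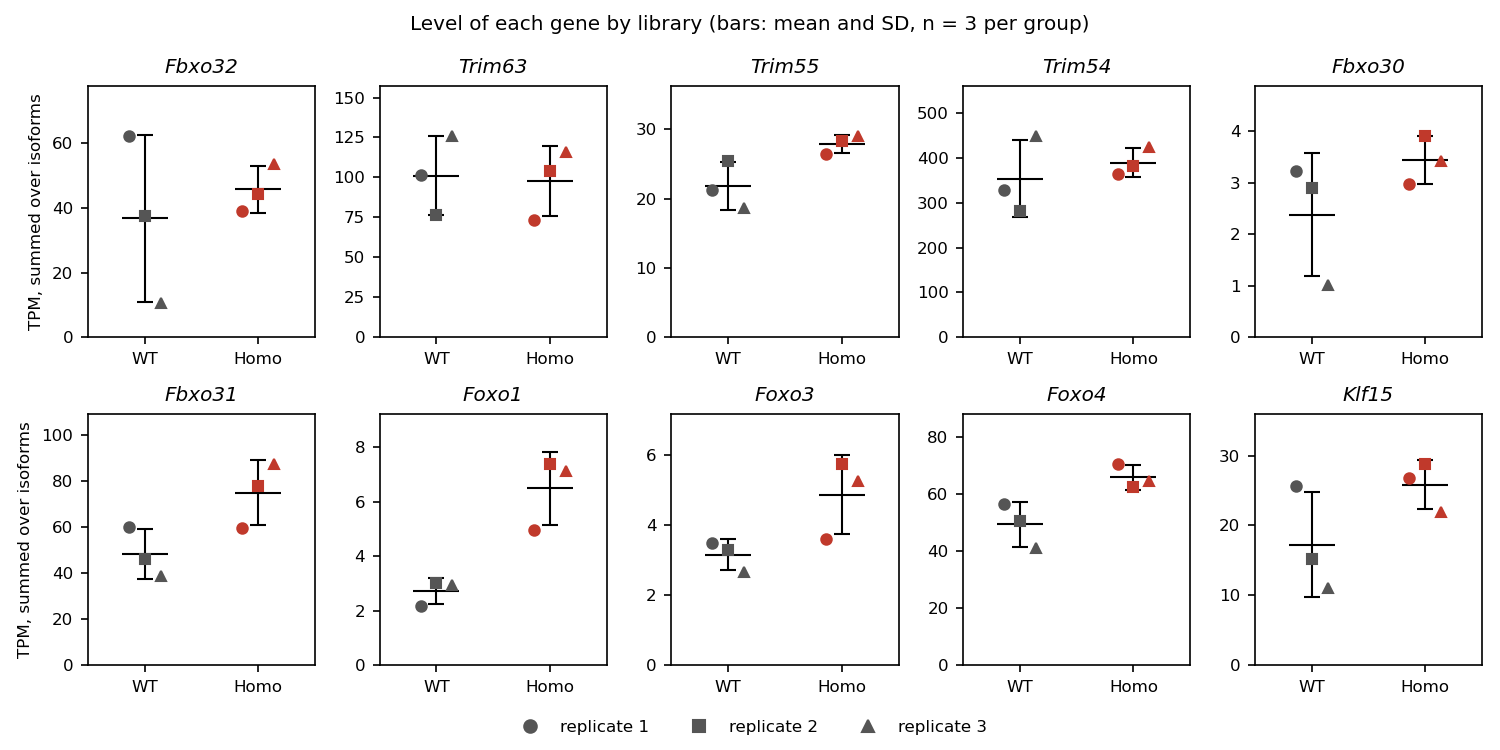
TPM summed over isoforms (linear axes from 0) for the 10 genes, with a point per library, symbols for replicate numbers, and bars for the group mean and SD (n = 3 each). The 3 Foxo1 values of the Homo group lie above the WT values, whereas Fbxo32 spans 10.5 to 62.2 TPM within WT alone.

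Trim55 (MuRF2) and Trim54 (MuRF3) are the relatives of Trim63 and encode ligases that bind the sarcomere and microtubules. Trim55 (chromosome 3, 19644474 to 19692421) was 26.4, 28.3 and 29.03 TPM in Homo libraries and 21.3, 25.5 and 18.7 TPM in WT libraries. Every Homo library lay above every WT library, by a gap of under 1 TPM at its narrowest. On the log2 scale the difference was 0.35 (SE 0.15, adjusted p 0.199 in limma), which is 0.086 more than the median of all genes, and 0.049 after median centring.

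Trim54 (chromosome 5, 31116712 to 31137630) was 364, 381 and 425 TPM in Homo libraries and 329, 282 and 449 TPM in WT libraries. WT replicate 3 was the highest of the 6, and the other WT libraries were the lowest. Its log2 fold change was 0.17 (SE 0.19, adjusted p 0.565 in limma), and 0.35 (SE 0.13) without WT replicate 3. It turned to -0.14 (SE 0.25) with median centring. Of the TPM summed over the 3 MuRF genes, Trim54 made up 72.9% to 78.4% in every library, with overlapping groups.

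Fbxo30 (MUSA1) and Fbxo31 encode further F-box proteins, and Fbxo30 is known from denervation atrophy. Fbxo31 (chromosome 8, 121549440 to 121578806, minus strand) was 59.7, 77.8 and 87.5 TPM in Homo libraries and 60.2, 45.9 and 38.8 TPM in WT libraries. Homo replicate 1 lay just below WT replicate 1, and the other values were ordered by genotype. Group means were 74.98 ± 14.1 and 48.3 ± 10.9 TPM (SD, n = 3 each). That difference, 0.63 on the log2 scale (SE 0.20), did not pass the threshold (adjusted p 0.168 in limma). It was 0.33 (SE 0.18) after median centring and 0.33 (SE 0.24) with the slow-fibre score as covariate. Fbxo31 overlaps Gm20388, a predicted gene on the opposite strand. No source used here says how strand entered the quantification, so reads of the pair may not be separated. Antisense genes also overlap Fbxo32 (Gm15943) and Trim54 (Gm15469), and BC002189 overlaps Trim55 on the same strand. Reads at these genes may likewise not be separated.

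Fbxo30 (chromosome 10, 11281330 to 11298052) was 2.97, 3.90 and 3.42 TPM in Homo libraries and 3.23, 2.90 and 1.01 TPM in WT libraries. Apart from WT replicate 3, the libraries lay between 2.90 and 3.90 TPM. Over all libraries the log2 fold change was 0.46 (SE 0.29, adjusted p 0.319 in limma), and it was 0.12 (SE 0.15) without that library, and -0.14 (SE 0.25) with the slow-fibre score as covariate.

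Among the FoxO factors, Foxo1 (ENSMUSG00000044167.6, chromosome 3, 52268336 to 52353221) showed the largest log2 fold change of the 10 genes in the fit on all 6 libraries. Without WT replicate 1, Fbxo32 (1.14) and Klf15 (0.94) exceeded it (0.89). Its level was 4.95, 7.39 and 7.14 TPM in Homo libraries and 2.16, 3.03 and 2.95 TPM in WT libraries. The highest WT library lay below the lowest Homo library. Group means were 6.49 ± 1.34 and 2.71 ± 0.481 TPM (SD, n = 3 each), a ratio of 2.40. On the log2 scale this was 1.01 (SE 0.19), which exceeds the all-gene median by 0.74, and its p ranked 31 of 11099. It did not pass the threshold over all genes (limma, unadjusted p 0.000838, adjusted p 0.168).

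Foxo1 was the only one of the 10 with an unadjusted p under 0.05 under every alternative of the gene test. Its log2 fold change was 1.06 without WT replicate 3, 0.98 (SE 0.27) with the slow-fibre score as covariate, and 0.70 with either quantile normalization or median centring. Over 15 alternatives it ran from 0.70 to 1.22. With array weights it passed (limma, adjusted p 0.0396), as 810 of 11099 genes did in that fit. Over all alternatives its adjusted p in limma ran from 0.0396 to 0.795. Foxo1 has 1 transcript row, so its value rests on no split between isoforms, while Gm20402 lies antisense to it and Gm38034 overlaps it on the same strand.

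Foxo4 (chromosome X, 101254528 to 101260873) was the most abundant FoxO transcript. Its level was 70.6, 62.3 and 64.6 TPM in Homo libraries and 56.5, 50.6 and 40.97 TPM in WT libraries, with no overlap. Its log2 fold change was 0.42 (SE 0.15, adjusted p 0.175 in limma), exceeding the all-gene median by 0.15, and 0.12 (SE 0.14) after median centring.

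Foxo3 (chromosome 10, 42181841 to 42276755, minus strand), a long-known activator of Fbxo32, was 3.59, 5.75 and 5.28 TPM in Homo libraries and 3.50, 3.29 and 2.65 TPM in WT libraries. Homo replicate 1 lay just above WT replicate 1, so the groups were apart by little. Its log2 fold change was 0.49 (SE 0.19, adjusted p 0.190 in limma), and 0.19 (SE 0.16) after median centring.

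Summed over the 3 FoxO genes, the level was 79.1, 75.5 and 77.02 TPM in Homo libraries and 62.1, 56.9 and 46.6 TPM in WT libraries. Foxo4 made up 82.6% to 90.9% of that sum in every library. The Foxo1 share was 6.26%, 9.79% and 9.27% in Homo libraries and 3.47%, 5.31% and 6.33% in WT libraries. Those shares overlapped, since WT replicate 3 lay just above Homo replicate 1.

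Klf15 (chromosome 6, 90462576 to 90475238) was 26.9, 28.8 and 21.9 TPM in Homo libraries and 25.6, 15.1 and 11.04 TPM in WT libraries. WT replicate 1 lay within the Homo range and the other WT libraries below it. The difference of 0.63 on the log2 scale (SE 0.27) exceeded the all-gene median by 0.36 and did not pass (adjusted p 0.208 in limma). It was 0.37 (SE 0.23) without WT replicate 3 and 0.11 (SE 0.28) with the slow-fibre score as covariate.

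**Figure D2:**
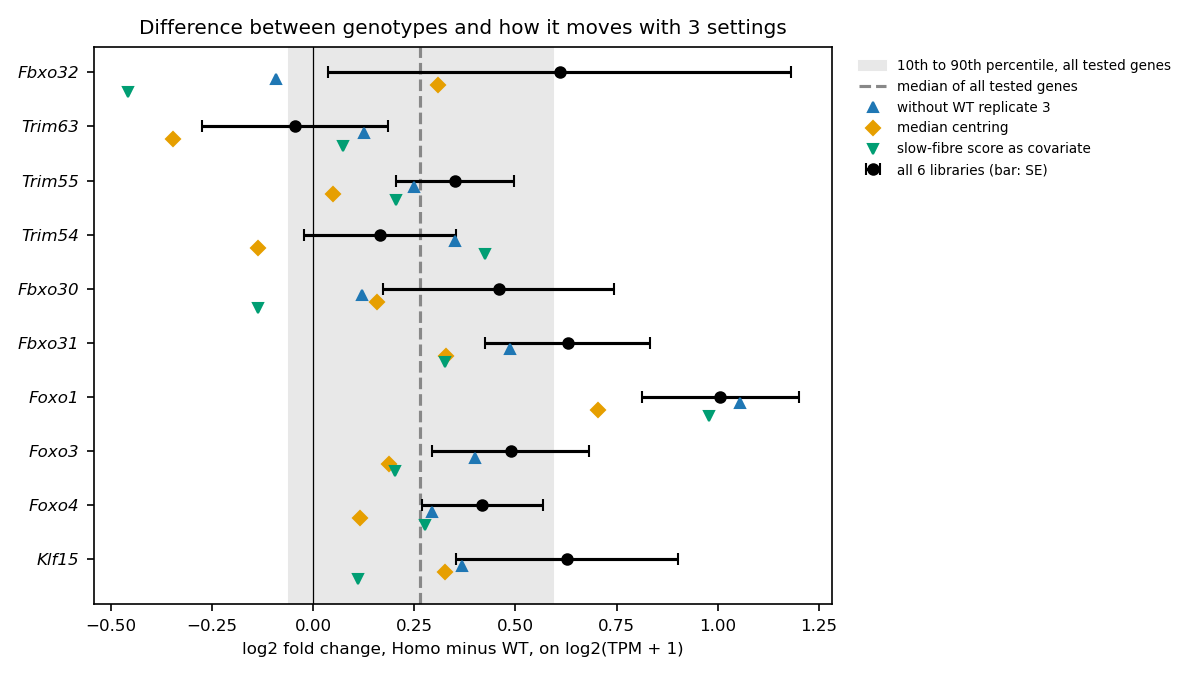
Log2 fold change (Homo minus WT) of each gene on the log2(TPM + 1) scale, with the SE of the fit on all 6 libraries and the values under 3 other settings. The grey band is the 10th to 90th percentile of all 11099 tested genes and the dashed line their median of 0.26, both from the fit on all 6 libraries. The band was not computed for the 3 other settings, whose all-gene medians were lower. Foxo1, at 1.01, lies right of this band under all 4 settings plotted, while Fbxo32 changes sides of 0.

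All 10 genes passed the filter on low values (at least 1 TPM in at least 3 libraries), and 0 of 10 passed the threshold of an adjusted p under 0.05 in limma, as did 0 of 11099 genes (0%). With an unadjusted p under 0.05 as the limit, 5 of the 10 were higher in Homo libraries (Trim55, Fbxo31, Foxo1, Foxo3 and Foxo4) and 0 lower, against 23.7% and 0.55% of all genes (24.3% in either direction). The groups did not overlap for 4 of the 10 (Trim55, Foxo1, Foxo3 and Foxo4), each with Homo above, against 34.7% of all genes, so this share was near the background. Groups with Homo below numbered 0, against 0.73%. After median centring 1 gene, Foxo1, kept groups that did not overlap, against 6.79% of all genes with Homo above. Without WT replicate 3 the groups were apart for 5 (adding Trim54), against 42.1%. The median log2 fold change of the 10 was 0.47, beside 0.26 over all genes, and 8 of 10 lay above that median. Of the 10, 9 had a log2 fold change above 0, against 85.8% of all genes. WT replicate 3 was the lowest of the 6 libraries for 7 of the 10, against 55.8% of all genes.

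At the level of isoforms, 22 of the 30 rows had a mean of at least 1 TPM in either group and 21 passed the filter. None of the 21 passed the threshold (limma, smallest adjusted p 0.247), against 0.0425% of 21165 isoforms tested. At an unadjusted p under 0.05, 7 of the 21 were higher in Homo libraries and 0 lower, against 14.2% and 1.52% of all isoforms (15.7% in either direction). Groups were apart with Homo above for 7, against 25.6%, and with Homo below for 0, against 2.11%. Of the 21, 15 had a log2 fold change above 0, against 76.7%. Fbxo32 and Foxo1 had 1 row each, and the leading row held at least 93.5% of the TPM of Foxo3, Foxo4 and Trim54 in every library.

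Trim63 was almost wholly 1 isoform, Trim63-202 (ENSMUST00000105875.7), at 88.9% to 99.0% of the gene's TPM. Trim63-201 (ENSMUST00000030638.6) differs from it inside the coding sequence by 9 bases at the end of exon 8 (chr4:134327774-134327782), shown here in capitals because these bases and the slightly longer ends of Trim63-202 are what tells the pair apart.
Trim63-202: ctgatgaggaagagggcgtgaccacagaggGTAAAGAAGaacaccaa
Trim63-201: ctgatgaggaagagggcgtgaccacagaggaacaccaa
The level of Trim63-201 was 1.36, 1.91 and 1.98 TPM in Homo libraries, 0.956 TPM in WT replicate 1, and it was listed at 0 in WT replicates 2 and 3. These are low values for a row with 0 exonic bases of its own, and its difference did not pass (limma, adjusted p 0.274). The non-coding row Trim63-204 was 13.5 TPM in WT replicate 3, or 10.7% of the gene there, and at most 1.77 TPM in the other libraries.

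Fbxo31 was split between Fbxo31-201 and Fbxo31-205 (ENSMUST00000212985.1), a model whose 606 exonic bases are all coding, with no untranslated bases. Fbxo31-205 holds an exon of 87 bases (chr8:121564638-121564724, minus strand) that Fbxo31-201 skips and the non-coding Fbxo31-204 also carries. That exon is in capitals, with 15 bases of its neighbours on each side.
Fbxo31-205: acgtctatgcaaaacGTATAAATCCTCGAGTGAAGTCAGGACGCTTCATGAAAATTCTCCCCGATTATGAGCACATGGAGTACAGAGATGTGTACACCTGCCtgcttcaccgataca
Fbxo31-201: acgtctatgcaaaactgcttcaccgataca
Fbxo31-205 was 22.5, 29.4 and 33.8 TPM in Homo libraries and 21.4, 13.7 and 9.40 TPM in WT libraries. Its share of the gene was 37.7%, 37.8% and 38.7% in Homo libraries and 35.6%, 29.9% and 24.2% in WT libraries. The shares did not overlap, but WT replicate 1 lay close to the Homo values, and an exact permutation test of 3 against 3 cannot give a two-sided p below 0.1. Fbxo31-205 has 0 exonic bases of its own, so its share may depend on how reads common to several isoforms were divided. The log2 fold change of Fbxo31-205 was 0.95 (SE 0.30) and that of Fbxo31-201 0.50 (SE 0.18), with adjusted p 0.280 and 0.293 in limma.

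Fbxo30 has 2 rows with the same coding length of 2238 bases, different first exons and different 3′ ends. Fbxo30-202 ends at 11298052 and has 5060 exonic bases. Fbxo30-201 ends at 11295518 and has 2492, of which 137 are in no other isoform. Both rows are low, at 2.90 TPM or less, so their shares are uncertain. Fbxo30-201 (ENSMUST00000070300.4) was 2.08, 1.87 and 2.26 TPM in Homo libraries, and 1.54, 0 and 0.138 TPM in WT libraries. Fbxo30-202 (ENSMUST00000129456.7) was 0.888, 2.03 and 1.16 TPM against 1.69, 2.90 and 0.873 TPM. Fbxo30-201 therefore made up 70.1%, 47.9% and 66.0% of the gene in Homo libraries and 47.7%, 0% and 13.7% in WT libraries. The log2 fold changes were 1.11 (SE 0.38) and -0.22 (SE 0.33), opposite in sign, and neither passed (limma, adjusted p 0.290 and 0.731).

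Trim55-202 (ENSMUST00000195744.1), a short non-coding row, was 2.24, 2.79 and 2.86 TPM in Homo libraries and 1.29, 0.676 and 1.14 TPM in WT libraries. The coding row Trim55-201 (ENSMUST00000029139.8) was 24.2, 25.5 and 26.2 TPM against 20.02, 24.8 and 17.5 TPM, with overlapping groups. The separation of the Trim55 sums thus rested partly on the non-coding row. Klf15-201 was 17.5, 17.7 and 18.5 TPM in Homo libraries and 17.1, 12.2 and 4.19 TPM in WT libraries, making up 37.9% of the gene in WT replicate 3 and at least 61.5% in the others.

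**Figure D3:**
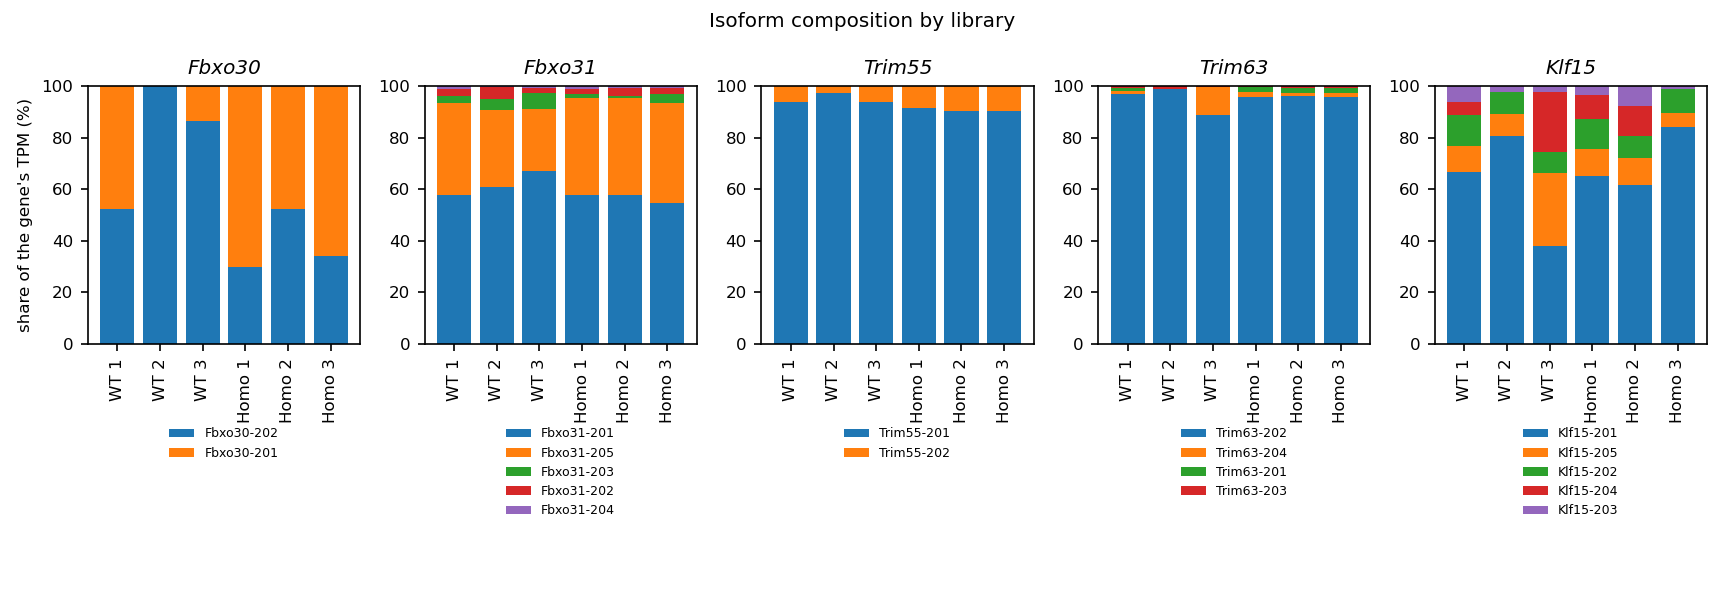
Share of each gene's TPM (%) by isoform in every library, for the 5 genes with the most divided composition. The Fbxo31-205 share is 37.7% to 38.7% in Homo libraries and lower in each WT library, and WT replicate 3 stands out in Trim63 and Klf15.

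Across the 6 libraries, profiles are described over 6 points of which WT replicate 3 is the most distant. Of the 7 genes lowest there, Fbxo32, Fbxo30, Fbxo31 and Klf15 lay furthest below their mean, at -1.71, -0.90, -0.60 and -0.84 on the log2(TPM + 1) scale. Trim63 and Trim54 had their highest value there, at 0.36 and 0.29. The root mean square difference between the centred profiles of Trim63 and Trim54 was 0.18, between Fbxo32 and Fbxo30 0.43, and between Fbxo32 and Trim63 0.94. Of 6836 other genes at a mean of 5 TPM or more, those closest to Trim63 were Sbf1 (0.11), the ribosomal protein gene Rps28 (0.12) and the methionyl-tRNA synthetase gene Mars (0.12). Those closest to Fbxo32 were the pseudogene Hmgb1-ps8 (0.24), Gm45777 (0.26) and Gm14391 (0.26), and such loci are uncertain where near-identical copies share reads.

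**Figure D4:**
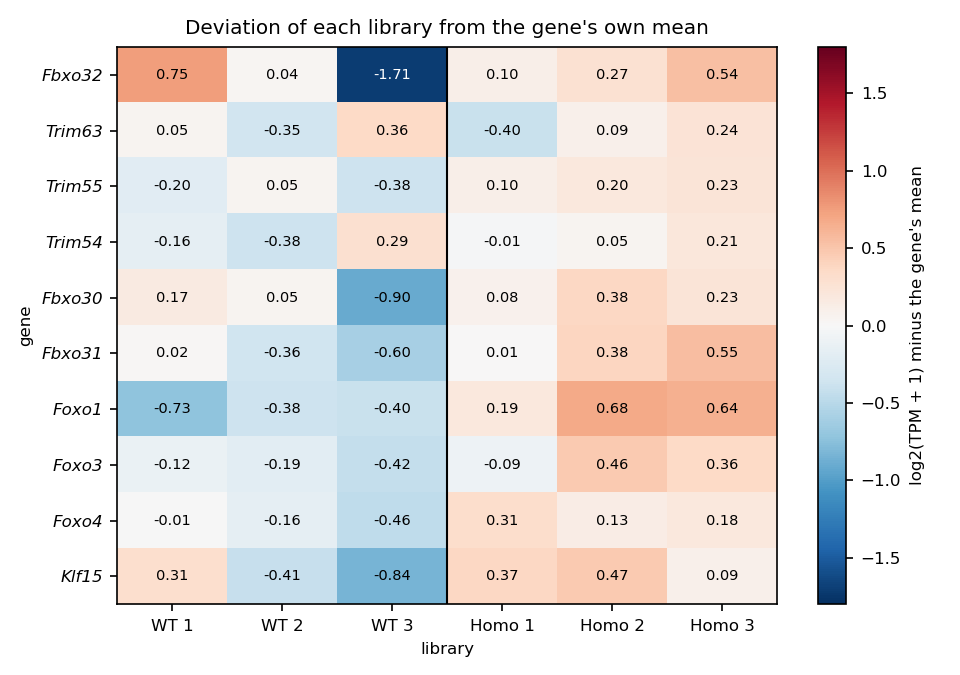
Deviation of log2(TPM + 1) in each library from the gene's mean over the 6 libraries. WT replicate 3 holds the lowest value of the plot, -1.71 for Fbxo32, beside 0.36 for Trim63.

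Other genes of the pathway, listed with earlier results of these data known, were read from the same fit, in which 0 passed in any list. Of 11 further muscle ubiquitin ligases, 11 were tested, 5 were higher at an unadjusted p under 0.05 and 0 lower, against 23.7% and 0.55% of all genes. Their median log2 fold change was 0.34, against 0.26 over all genes. Ubr2, an N-end rule ligase, was 18.5, 24.4 and 20.7 TPM in Homo libraries and 12.3, 13.9 and 11.4 TPM in WT libraries, with no overlap, or 0.71 on the log2 scale (SE 0.15, adjusted p 0.168 in limma). Fbxo40, a muscle F-box gene whose product targets IRS1, was 75.04 ± 3.99 and 58.9 ± 3.64 TPM (SD, n = 3 each), or 0.34 on the log2 scale. Ube4b gave 0.42, Cblb 0.28 and Fbxo21 0.23.

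Of 12 FoxO targets of stress, growth arrest and autophagy, 5 were higher at an unadjusted p under 0.05 and 0 lower, against the same 23.7% and 0.55% of all genes, and the median was 0.61 against 0.26. Ulk1, which encodes the kinase that starts autophagy, was 28.3, 35.6 and 28.3 TPM against 19.2, 21.4 and 13.1 TPM, or 0.77 on the log2 scale (SE 0.20, adjusted p 0.168 in limma). Of the other autophagy genes named, Gabarapl1 gave 0.78 with groups apart and Map1lc3b 0.64 with overlapping groups. The stress and cell-cycle genes Gadd45a, Cdkn1b and Cdkn1a gave -0.13, 0.16 and 0.58, each with overlapping groups (lowest adjusted p 0.214 in limma). Pdk4 gave -0.30 (SE 0.69), also with overlapping groups. Groups were apart with Homo above for 3 of the 12, against 34.7% of all genes. A log2 fold change above 0 was seen for 10 of the 12, against 85.8% of all genes.

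Among the regulators of FoxO, 12 of 13 genes were tested, 7 were higher at an unadjusted p under 0.05 and 0 lower, against 23.7% and 0.55% of all genes, and the median was 0.63 against 0.26. Those named act at the top of the insulin pathway: Irs1 (1.20, SE 0.34), Irs2 (1.06, SE 0.28) and the receptor gene Insr (0.62, SE 0.20), each with groups that did not overlap and an adjusted p of 0.168 in limma. Irs2, itself a FoxO target, was 12.5, 9.71 and 8.995 TPM in Homo libraries and 5.34, 6.26 and 2.47 TPM in WT libraries.

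Of 9 substrates and partners of the ligases, 3 were higher at an unadjusted p under 0.05 and 0 lower, a share near the 23.7% and 0.55% of all genes, and the median was 0.18 against 0.26. Eif3f and Myod1, whose products are targets of atrogin-1, gave 0.18 (SE 0.14) and 0.62 (SE 0.48), while Ttn, whose protein binds MuRF1, gave 0.36 (SE 0.13). Des gave 0.44 and Smad4 0.51. The rest of the list was lower in Homo libraries, each gene with overlapping groups: Myoz1 (-0.26), Mybpc2 (-0.30), Mylpf (-0.35) and Myl1 (-0.43). Thus 5 of the 9 had a log2 fold change above 0, against 85.8% of all genes. Of 7 amino acid genes linked to KLF15, 1 (Got1, 0.49) was higher at an unadjusted p under 0.05 and 0 lower, against 23.7% and 0.55% of all genes, and the median was 0.25 against 0.26. Bcat2, which starts branched-chain amino acid breakdown, gave -0.30 (SE 0.22), Bckdha 0.25 and Prodh 0.49, each with overlapping groups (lowest adjusted p 0.291 in limma).

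Of 10 genes in a list of the glucocorticoid receptor gene and its targets, 3 were higher at an unadjusted p under 0.05 and 0 lower, near the 23.7% and 0.55% of all genes, and the median was 0.56 against 0.26. The receptor gene Nr3c1 gave 0.77 (SE 0.20), Zbtb16 0.86 (SE 0.22) and Mt2 1.21 (SE 0.33), each with groups that did not overlap and an adjusted p of 0.168 in limma. Fkbp5 (0.53, SE 0.46) and Tsc22d3 (0.057, SE 0.23) had overlapping groups. Further targets in the list, Ddit4 (-0.42), Sgk1 (-0.37) and Per1 (0.080), also had overlapping groups. Of the 10, 8 had a log2 fold change above 0, against 85.8% of all genes. Tsc22d3 (199 TPM), Sgk1 (125 TPM), Mt1 (108 TPM) and Ddit4 (48.9 TPM) were highest in WT replicate 3, as Trim63 was. The other genes of the list were not, and the share of all genes highest there was not computed.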

How the data were processed

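The authors deposited TPM (transcript abundance scaled to 1000000 per library) per Ensembl transcript, per the file headers. The submitters' processing notes name FastQC, Trimmomatic, HISAT2, kallisto and the build mm10, without roles or versions. RNA was poly-A selected and made into stranded libraries, per the labels' protocols. TPM carries no depth, so counting error cannot be given. Rows were summed per symbol and tested as log2(TPM + 1) with limma 3.58.1 (R 4.3.3; trend, robust, genotype only, Benjamini-Hochberg, two-sided), for features reaching 1 TPM in 3 or more libraries (11099 genes, 21165 isoforms). A fold change on this scale understates that of low genes. On simulated data of 11099 genes with 200 changed, the test recovered 0%, 45% and 89.5% of genes changed by 0.5, 1 and 2 on the log2 scale, with 0, 2 and 8 false calls. The simulated noise was independent between genes, with changes of either sign. It held no shift over all genes and no outlying library, unlike these data, so the rates may not carry over.

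Positions and isoform models came from GENCODE M21 (GRCm38), which matched 29 of 30 rows with their version and 30 without it (Fbxo32 differs in version). All 6 columns matched 1 library by name and 0 were left over. The genes, lists and naming rule (every member, the first 3 and up to 3 lowest-p genes of each list, the leading isoforms, and the 3 most similar profiles for Fbxo32 and Trim63) were chosen with earlier results of these data known. The slow-fibre score is the mean log2 value of 11 slow-fibre genes, and it was higher in every Homo library than in any WT library. Alternatives were quantile normalization, median centring, mitochondrial transcripts left out, no filter, a pseudocount of 0.1, each library left out, array weights, a replicate block, the slow-fibre covariate and the leading isoform alone. The member counts at an unadjusted p under 0.05 and of groups apart, and their alternatives, were added after seeing the data.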

Additional observations from a re-analysis of the deposited data

How the results depend on the processing

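The count of members past the threshold was 0 and became 1 (Foxo1) with array weights, which gave WT replicate 3 a weight of 0.199. Over all genes the count was 0, and 810 with array weights. With 1 library omitted at a time it was 0 to 2, namely 2 without WT replicate 1, 1 without WT replicate 2 and 0 otherwise. Over all isoforms the count of 9 was 3 with quantile normalization, 5 with median centring, 5 without mitochondrial transcripts, 4 with a pseudocount of 0.1, 14 with array weights, 0 with no filter and 0 with the slow-fibre covariate, and 0 to 36 when each library was left out (36 without WT replicate 1, 1 without Homo replicate 3, and 0 without Homo replicate 1, Homo replicate 2 or WT replicate 3). No member isoform passed in any of these settings. The cause was not tested.

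The replicate block gave 0 genes, 0 members and 0 isoforms. Deviations of same-numbered libraries correlated at -0.07 to 0.06, against -0.14 to 0.13 for other pairs, so the numbers give no sign of a pairing.

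Members at an unadjusted p under 0.05 numbered 5, and 1 with quantile normalization, median centring or the slow-fibre covariate, each time Foxo1. The share of all genes in either direction was 24.3%, and 8.88%, 8.26% and 5.25% in those settings, so 1 of 10 was near the background. Members numbered 2 without mitochondrial transcripts (all genes 10.4%) and 1 to 6 when each library was left out. The count was 1 (Foxo1) without Homo replicate 3 and 3 without Homo replicate 1 or 2 (all genes 12.5%, 20.4% and 9.94%). It was 6 without WT replicate 1 and 4 without WT replicate 2 or 3 (all genes 24.3%, 25.3% and 21.98%). Array weights gave 6 (all genes 33.9%) and the replicate block 4 (20.5%). With no filter or a pseudocount of 0.1 the count stayed at 5 (all genes 15.3% and 23.6%). The count of members with groups apart was 4, and 1 with median centring. Of all genes at an unadjusted p under 0.05, 97.7% were higher, and 51.1% with quantile normalization or 44.2% with median centring.

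Signs turned for 4 genes that had not passed. Fbxo32 was -0.11 with array weights, -0.46 with the slow-fibre covariate and -0.091 without WT replicate 3, the lowest of a range up to 1.14 when each library was left out. Trim63 was 0.073 with array weights, 0.073 with the slow-fibre covariate, 0.13 without WT replicate 3 and 0.15 without Homo replicate 1, in a range of -0.23 to 0.15 when each library was left out. Trim54 was -0.14 with median centring. Fbxo30 was -0.14 with the slow-fibre covariate and -0.22 for its leading isoform alone. The other 6 kept their sign under every alternative run.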
